A study of Mus musculus with 13 samples.

Results

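The comparison is between cells sorted on CD31 from tumors labelled sensitive (4 arrays) and cells sorted the same way from tumors labelled control (5 arrays), described across all genes. Genes were taken as the probe sets with a single gene symbol, with 1 probe set per gene, chosen for its highest mean on the 13 arrays of the series. This gave 18193 genes from 45101 probe sets. Of these, 15370 were above a floor of 2.01 on the log2 scale, the 30th percentile of all values, on at least 4 of the 13 arrays and were tested, and 2823 were not. The series was made to look for genes that change in tumor vessels while an anti-VEGF antibody works and after it stops working. The tumors were grown from SKOV3ip1, a human ovarian cancer line, in female athymic nude mice (NCr-nu), which lack a thymus and mature T cells but keep B cells, NK cells and macrophages. In the study's methods, the sensitive tumors had been given B20, an antibody against VEGF-A, and were still responding by bioluminescence, and the untreated arm had been given a control IgG. The labels give only the words control and sensitive and a biological replicate number. The methods give 1 dosing schedule for the model and a range of weeks for its course, and neither they nor the labels give the age of the mice, the time behind a given array or the animals that went into it, so p-values reflect how far these samples spread, which may be technical. Tumors were broken up with elastase, collagenase A and DNase, then passed over Percoll to remove platelets and red cells before the sort. In the study's methods tumor cells were sorted with an antibody against CD326, and endothelial cells with an antibody against CD31. Another 4 arrays, from tumors labelled resistant, entered the statistical fit for its estimate of spread and are not described.

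CD31, encoded by Pecam1, is an adhesion protein of the junctions between endothelial cells that is also carried by platelets and by some macrophages and lymphocytes. VEGF-A drives the growth and survival of vessels through its receptor KDR, and its loss prunes tumor vessels and can lower the oxygen supply of the tissue. Cells short of oxygen stabilise the HIF transcription factors, which switch on glycolytic enzymes by binding promoters at a short core sequence. Macrophages are main leukocytes of the peritoneal cavity, where ovarian tumors spread, and are recognised by Fc receptors, scavenger receptors and lysosomal enzymes.

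The label of endothelial cell was checked against 30 endothelial identity genes. Their median on the log2 scale was 3.24, 3.27 and 3.42 on control arrays 1, 2 and 3, and 6.64 and 6.67 on control arrays 4 and 5. On the sensitive arrays it was 3.81, 3.61, 2.86 and 3.52. Only control arrays 4 and 5 thus carried the endothelial list at a clear level, and none of the sensitive arrays did. Of 8 defining endothelial genes, control arrays 4 and 5 had 0 within 1 log2 unit of the floor, the other control arrays had 5 or 6, and the sensitive arrays had 4, 6, 6 and 3. The median of 23 macrophage and monocyte genes lay between 8.42 and 9.12 on the control arrays. It was 4.47, 5.15 and 5.42 on sensitive arrays 1, 2 and 3 and 9.24 on sensitive array 4. In bulk samples, fewer cells of a type and less RNA per cell cannot be told apart. The samples are called sensitive and control arrays below, without a cell type.

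**Figure D1:**
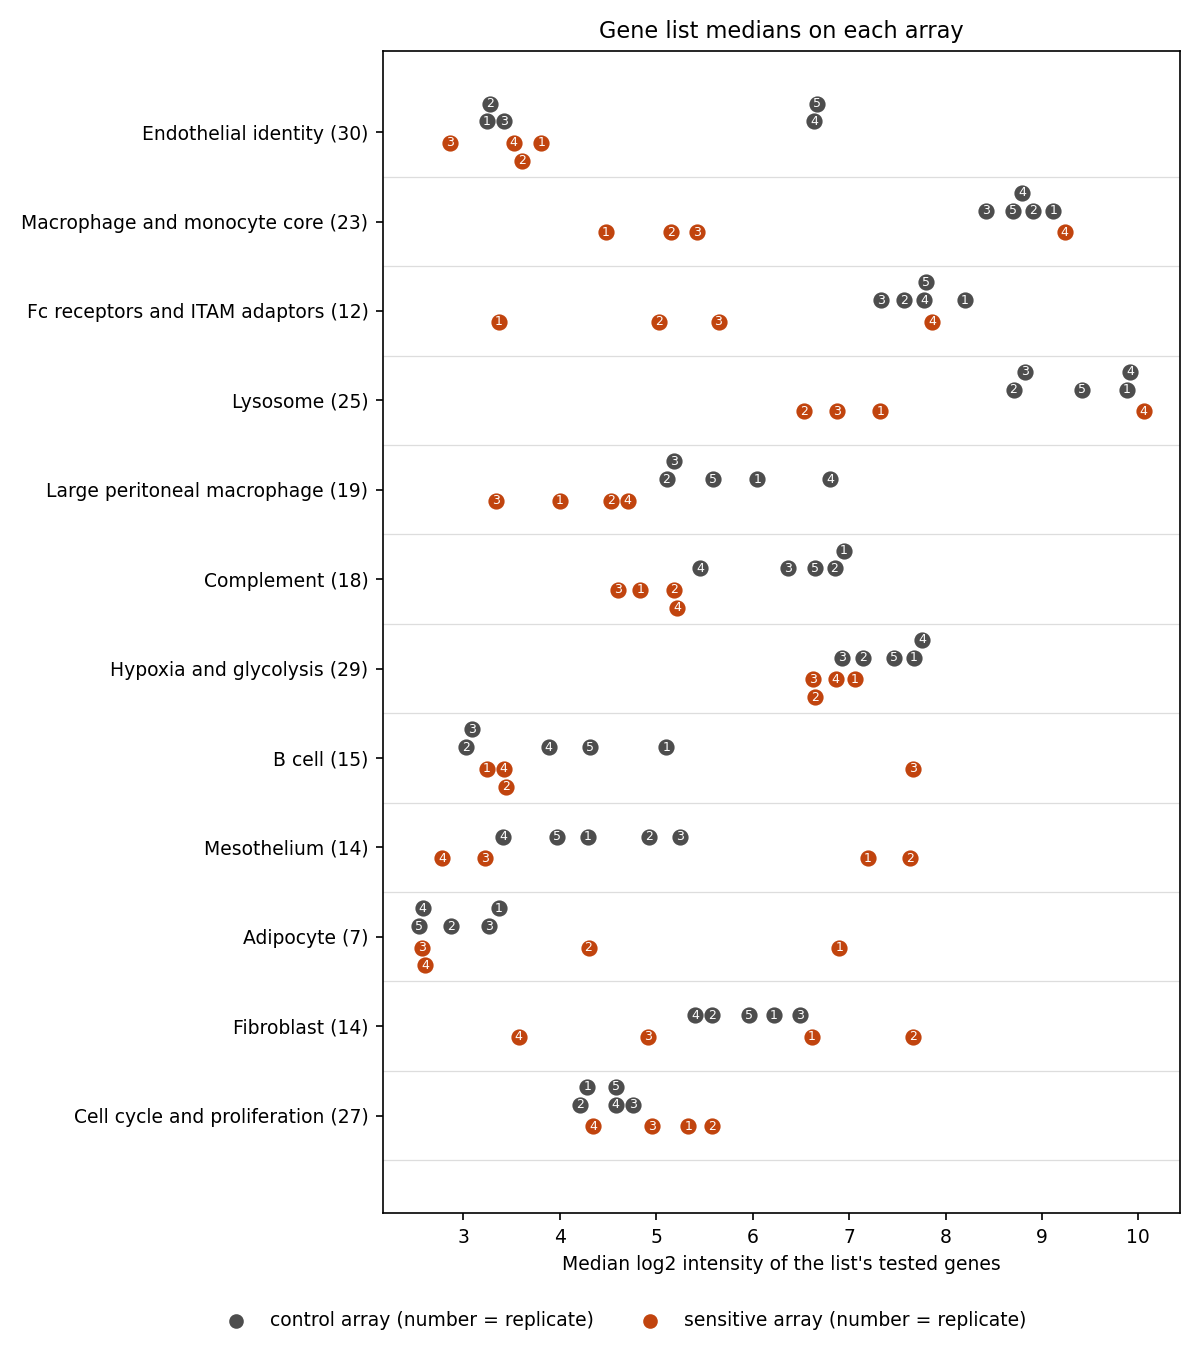
Each row is a gene list with its number of tested genes, and the x axis is the median log2 intensity of those genes on an array. Grey points are the 5 control arrays and orange points the 4 sensitive arrays, numbered by replicate and moved up or down only to keep them apart. Sensitive array 4 sits with the controls for the macrophage, Fc receptor and lysosome lists, while all 4 sensitive arrays sit below the controls for the large peritoneal macrophage and complement lists.

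The sensitive arrays differed from one another in their other cell types. The median of the mesothelial genes, which mark the peritoneal lining, was 7.19 and 7.63 on sensitive arrays 1 and 2, but 3.22 and 2.78 on sensitive arrays 3 and 4, with 3.41 to 5.25 on the controls. The B cell list reached 7.66 on sensitive array 3, while the other 8 arrays had 3.03 to 5.10. The adipocyte list was 6.90 on sensitive array 1 and 4.30 on sensitive array 2, against 2.54 to 3.37 on the controls. The pancreatic acinar list varied in both groups, at 4.24, 6.47, 10.79 and 7.25 on the sensitive arrays. On the controls it ran from 5.38 to 11.56, the highest on control array 1. Fibroblast genes had a median of 3.57 on sensitive array 4 and of 5.40 or more on every control array. Sensitive array 4 also had the largest gap between 3' and 5' control probe sets of Actb and Gapdh, a mean of 5.95 log2 units against 2.23 to 3.35 on the other 8 arrays. Sensitive arrays 1 and 2 were dimmer as deposited, with a trimmed mean intensity of 19.4 against 23.8 to 33.1 on the other 7 arrays of both groups. Correlations between arrays ran from 0.905 to 0.984 within the controls and from 0.663 to 0.919 within the sensitive group. These features move with single arrays of the sensitive group, and their part in the differences below was not tested.

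No gene was called between the groups (0 of 15370, 0%) by limma at a Benjamini-Hochberg adjusted p under 0.05 with all arrays. At an unadjusted limma p under 0.05 there were 1828 genes (11.9%), 1012 lower (6.58%) and 816 higher (5.31%) on the sensitive arrays. Another description asks for genes whose groups do not overlap, that is, every sensitive array lies below, or above, every control array. There were 465 such genes (3.03%), 245 lower (1.59%) and 220 higher (1.43%). The median difference over all genes was 0.09 on the log2 scale, with quartiles of -0.27 and 0.38. The split depended on the scaling of the arrays. With the values as deposited, without quantile normalization, 119 genes were higher and 250 lower with groups not overlapping, and 529 higher and 1255 lower at an unadjusted p under 0.05. With arrays shifted to a common median the numbers were 81 and 244 without overlap and 344 and 1349 by p, and the median difference over all genes moved from 0.09 to -0.05. Of the 245 lower genes, 124 also had groups that did not overlap as deposited, against 57 of the 220 higher genes. The 15 lower genes with the smallest p included 13 whose groups did not overlap under each of the 3 scalings tried, and the 15 higher genes included 2.

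Without sensitive array 4, limma called 696 genes (4.53%) at an adjusted p under 0.05, of which 542 were lower (3.53%) and 154 higher (1%). This array was left out with its values known, and it is the sensitive array with macrophage genes at control level. Adjusted p-values from this fit therefore describe sensitive arrays 1, 2 and 3 and are no separate support. Of the 542 lower genes, 216 lay on the same side of the control mean on sensitive array 4, and 94 had groups that did not overlap over all 9 arrays. Of the 154 higher genes, these numbers were 75 and 27. When control arrays 4 and 5 were left out as well, 273 genes were called, and 253 of the 542 lower and 11 of the 154 higher genes were among them. Genes are therefore described in 2 sets, those lower or higher on all 4 sensitive arrays, and those that stood out on sensitive arrays 1, 2 and 3 but not on sensitive array 4.

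**Figure D2:**
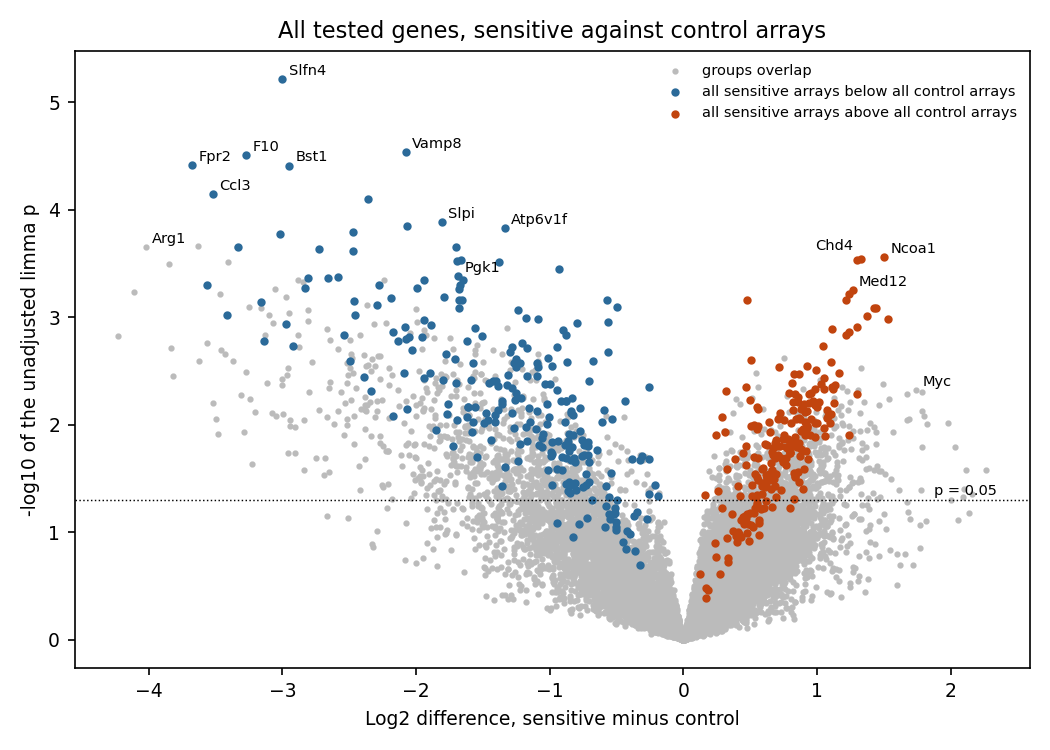
Each point is 1 of the 15370 tested genes, with its log2 difference (sensitive minus control) on the x axis and minus the log10 of its unadjusted limma p on the y axis. Blue and orange points are the 245 and 220 genes whose groups do not overlap, and the dotted line marks the unadjusted 0.05 level. The lower genes reach larger differences than the higher ones.

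Slfn4, F10, Fpr2 and Bst1 were among the 15 genes with the smallest p that were lower on every sensitive array. Slfn4, a Schlafen family gene of myeloid cells, had the smallest p of all genes. Its log2 level was 6.43, 7.30, 6.46, 7.49 and 8.20 on the control arrays and 3.71, 3.54, 4.64 and 4.81 on the sensitive arrays. The lowest control lay above the highest sensitive array by more than 1 log2 unit, a gap found in the lower direction on all 4 arrays for 3 genes, Slfn4, the actin-capping gene Capg and AA467197, the last named only because it completes the count. The difference in Slfn4 was -2.999 (SE 0.43), a 7.995-fold lower level, with a limma adjusted p of 0.0929. Slfn2, another member of the family, was between 10.72 and 11.31 on the controls and at 8.07, 7.03, 7.09 and 10.53 on the sensitive arrays, so that sensitive array 4 lay only just below the controls. Of 6 Schlafen genes tested, these were the 2 whose groups did not overlap (33.3%, against 3.03% of all genes), and Slfn2 overlapped with a common median.

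F10, the gene of coagulation factor X and a marker of large peritoneal macrophages, was at 9.47, 9.91, 9.63, 9.30 and 9.41 on the control arrays and 5.41, 5.63, 5.53 and 8.53 on the sensitive arrays. The difference was -3.27 (SE 0.54, limma adjusted p = 0.119). Fpr2, a formyl peptide receptor of phagocytes, was at 9.54, 10.60, 10.32, 9.71 and 9.59 against 4.88, 6.19, 5.32 and 8.71. In both genes sensitive array 4 was within about 1 unit of the lowest control and the other sensitive arrays were more than 3 units below it. Bst1, which encodes the myeloid surface enzyme CD157, was at 7.32, 6.66, 6.22, 7.21 and 5.97 against 3.89, 3.22, 2.75 and 5.04 (difference -2.95, SE 0.50). Vamp8, a SNARE protein of secretory granules and endosomes, was at 7.76, 8.31, 8.45, 7.37 and 7.24 against 5.45, 5.34, 5.57 and 6.64 (difference -2.08, SE 0.34). The pattern repeats that of F10, with sensitive array 4 the closest to the controls. The limma adjusted p of Fpr2, Bst1 and Vamp8 was 0.119 in each case.

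Secreted proteins were also among these genes. Ccl3, a chemokine that attracts monocytes, was at 8.96, 9.42, 9.03, 10.29 and 9.77 on the control arrays and 4.64, 4.59, 6.52 and 8.13 on the sensitive arrays (difference -3.52, SE 0.63, limma adjusted p = 0.175). Its relatives Ccl6 and Ccl9 differed by -3.57 and -3.16, with sensitive array 4 at 9.13 and 8.88 and the lowest control at 9.18 and 8.97. Of 20 CC chemokine and receptor genes tested, 15 were negative, 7 were lower at an unadjusted p under 0.05 (35.0%, against 6.58% of all genes) and these 3 did not overlap (15%, against 1.59%), although Ccl9 overlapped under the 2 other scalings. Slpi, an inhibitor of neutrophil elastase, was at 9.76, 10.98, 10.70, 10.19 and 10.12 against 9.39, 8.57, 7.96 and 8.25 (difference -1.81, SE 0.35). Here sensitive array 1 and not sensitive array 4 was closest to the controls. Pltp, a phospholipid transfer protein, was between 8.94 and 9.35 on the controls and at 8.35, 7.15, 6.80 and 6.10 on the sensitive arrays (difference -2.06, SE 0.40), lowest on sensitive array 4. S100a8, a calcium-binding protein of neutrophils and monocytes, differed by -2.97, with 7.58 as the lowest control and 7.17 as the highest sensitive array.

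Lyz2, the macrophage lysozyme, was between 11.36 and 11.90 on the control arrays and at 7.65, 8.05, 7.45 and 11.11 on the sensitive arrays. Its groups overlapped when arrays were shifted to a common median. Timd4, which encodes a receptor for dying cells on large peritoneal macrophages, was between 5.19 and 7.64 on the controls and at 2.01, 2.01, 3.47 and 5.12 on the sensitive arrays, 2 of them at the floor, so the difference of -3.33 (SE 0.68) understates the change. Its groups overlapped under both other scalings. The remaining genes of the 15 with the smallest p were Upp1 (uridine phosphorylase, -2.36), Atp6v1f (a subunit of the proton pump of lysosomes, -1.34), Treml4 (a myeloid receptor, -2.47), B3gnt2 (a glycosyltransferase, -1.70) and Stom (stomatin, a membrane scaffold, -2.72). Osgin2, with a difference of -3.41, was among the 10 largest differences of lower genes without overlap, but overlapped under both other scalings. Another probe set gave a difference of the same sign for F10, Bst1, Pltp and Ccl6. For Stom another bright probe set gave -2.52, while 2 dim ones gave 0.14 and 0.18.

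**Figure D3:**
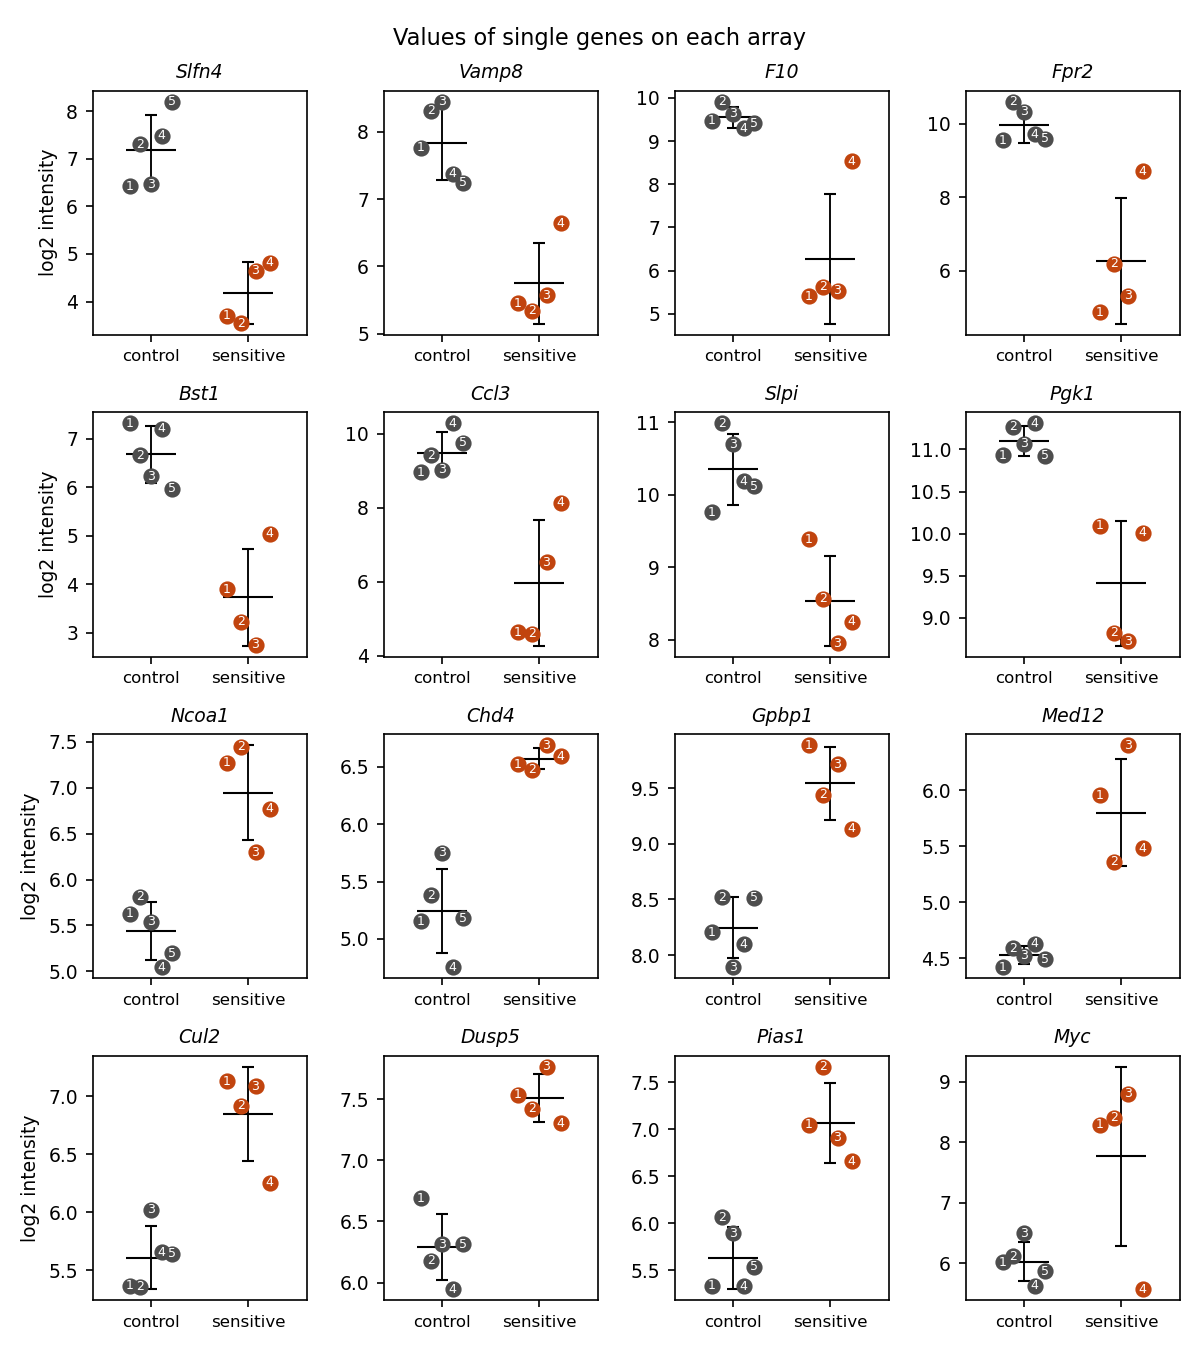
Each panel shows 1 gene, with log2 intensity on the y axis (axes do not start at 0) and a point for each control (grey, n = 5) and sensitive (orange, n = 4) array, numbered by replicate. Horizontal bars are group means and error bars are SDs. In 15 of the 16 panels the groups do not overlap, and in the Myc panel sensitive array 4 lies below all controls.

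Genes of glycolysis and hypoxia had mostly negative differences, and 7 enzyme genes lay below every control on all 4 sensitive arrays. Of 29 genes on the list, 24 were negative, 12 were lower (41.4%, against 6.58% of all genes) and 0 higher at an unadjusted p under 0.05, and 7 did not overlap (24.1% of the list, against 1.59% of all genes lower without overlap). The 5 positive genes were Ddit4 (1.11), Hk2 (0.98), Kdm3a (0.65), Car9 (0.51) and Egln3 (0.38). The median difference of the list was -1.005, against 0.09 over all genes. Over 28 alternatives it ran from -1.41, with arrays shifted to a common median, to -0.56, without sensitive array 3, and it was -1.29 as deposited and -0.72 with probe sets without a suffix preferred. Of the 7 genes, 5 did not overlap under each of the 3 scalings. Sensitive arrays 1, 2 and 3 all lay below the lowest control for 11 of the 29 genes (37.9%, against 6.88% of all genes), and sensitive array 4 for 13 (44.8%, against 18.6%). Sensitive array 4 lay above every control for 4 of the 29 genes (13.8%, against 18.8% of all genes). The median of the list relative to the control mean was -0.97 for sensitive arrays 1, 2 and 3 and -0.63 for sensitive array 4. No list was tested as a set.

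The promoters of 3 of these genes are printed because they share the core of the hypoxia response element. They are the 250 bases before the RefSeq start site on GRCm38.p6, 5' to 3' on the strand of the gene, with each ACGTG or its reverse complement CACGT in capitals. Pgk1 lies at chrX:106186850-106187099 on the plus strand, P4ha1 at chr10:59323046-59323295 on the plus strand and Ero1a at chr14:45318573-45318822 on the minus strand.
Pgk1: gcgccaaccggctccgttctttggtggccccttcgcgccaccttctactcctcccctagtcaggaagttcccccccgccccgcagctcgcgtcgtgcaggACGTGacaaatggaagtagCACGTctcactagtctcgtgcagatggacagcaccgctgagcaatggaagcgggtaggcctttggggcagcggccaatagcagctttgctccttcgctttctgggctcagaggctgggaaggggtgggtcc
P4ha1: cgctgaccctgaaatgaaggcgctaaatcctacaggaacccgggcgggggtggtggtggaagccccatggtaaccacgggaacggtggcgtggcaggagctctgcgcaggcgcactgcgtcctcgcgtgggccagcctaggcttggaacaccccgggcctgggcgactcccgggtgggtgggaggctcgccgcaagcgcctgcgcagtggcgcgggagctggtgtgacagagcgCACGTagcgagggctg
Ero1a: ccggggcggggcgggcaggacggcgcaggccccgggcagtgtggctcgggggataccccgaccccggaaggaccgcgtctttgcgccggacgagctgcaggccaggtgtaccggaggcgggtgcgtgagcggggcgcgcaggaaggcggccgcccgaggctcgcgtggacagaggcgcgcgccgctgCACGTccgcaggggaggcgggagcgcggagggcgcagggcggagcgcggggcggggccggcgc

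The Pgk1 window held 2 matches and the P4ha1 and Ero1a windows 1 each. The windows of Pfkl, Pfkp and Tpi1, which were also lower, held 0. Across the list, 21 of 39 promoters held a match (53.8%), from 18 of 27 genes with a promoter in the table. The share was 16.6% of all 32851 promoters and 20.1% of the 15543 promoters of tested genes. Many genes of the list are known as HIF targets, so a higher share follows in part from how the list was made. Among the 12 genes lower at an unadjusted p under 0.05 it was 10 of 18 promoters (55.6%), close to the share of the whole list. The match is a description of the sequence and shows no binding.

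Pgk1, phosphoglycerate kinase, was at 10.93, 11.27, 11.07, 11.31 and 10.93 on the control arrays and 10.10, 8.82, 8.72 and 10.01 on the sensitive arrays. The difference was -1.69 (SE 0.37, limma adjusted p = 0.189), and without sensitive array 4 it was -1.89 with an adjusted p of 0.0121. Other probe sets of Pgk1 gave -0.85 and -0.68. P4ha1, a collagen prolyl hydroxylase, was at 7.73, 8.47, 8.24, 7.76 and 7.46 against 7.06, 5.88, 5.33 and 6.86 (difference -1.65, SE 0.38). Ero1a, an oxidase of the endoplasmic reticulum, was at 8.03, 8.86, 9.10, 9.43 and 8.68 against 7.43, 7.14, 7.31 and 8.11, with sensitive array 4 just above the lowest control (difference -1.32, SE 0.33). In each of the 3 genes sensitive arrays 2 and 3 were well below all controls. By the probe sets used, 2 phosphofructokinase genes were low on every sensitive array. Pfkl was between 7.17 and 8.72 on the controls and between 4.94 and 6.43 on the sensitive arrays, and Pfkp between 8.17 and 8.64 against 5.77 to 7.67, although Pfkp overlapped under the other scalings and Pfkl was at 0.13 with probe sets without a suffix preferred. The aldolase gene Aldoa (-1.39), the triosephosphate isomerase gene Tpi1 (-1.48) and the pyruvate kinase gene Pkm (-1.22) also did not overlap. In limma without sensitive array 4, 6 genes of the list were called lower (20.7%, against 3.53% of all genes). They were Pgk1, P4ha1, Ero1a, Pfkl, Pfkp and Ldha. Vegfa, a HIF target named after its values were seen, was at 9.25 on sensitive array 4 and at 5.20 to 7.50 on the other 8 arrays. It thus did not follow the median of the list there, and some members of the list were also high on that array.

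Core macrophage genes separated sensitive arrays 1, 2 and 3 from the controls. All 23 tested genes of the macrophage and monocyte list were negative, and 18 were lower at an unadjusted p under 0.05 (78.3%, against 6.58% of all genes). Lyz2 was the 1 gene lower without overlap (4.35%, against 1.59% of all genes), and the median difference of the list was -2.11. For 17 of the 23 genes (73.9%, against 6.88% of all genes) sensitive arrays 1, 2 and 3 all lay below the lowest control. For 2 genes (8.7%, against 18.6% of all genes) sensitive array 4 did. The median over the list relative to the control mean was -2.99 for sensitive arrays 1, 2 and 3 and 0.32 for sensitive array 4. In the limma fit without sensitive array 4, 15 of the 23 genes were called lower (65.2%, against 3.53% of all genes). That fit leaves out the sensitive array with these genes at control level, so the calls follow in part from that choice. Without sensitive arrays 1, 2 and 3 the median of the list turned to 0.32.

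Itgam, the integrin subunit CD11b, was at 7.01, 7.99, 7.02, 7.02 and 5.64 on the control arrays and at the floor of 2.01 on sensitive arrays 1, 2 and 3, with 6.31 on sensitive array 4. Cd68, a lysosomal glycoprotein of macrophages, was between 7.48 and 8.65 on the controls and at 3.71, 2.53, 4.26 and 7.82 on the sensitive arrays. Without sensitive array 4 the differences were -4.92 for Itgam (limma adjusted p = 0.000182) and -4.55 for Cd68. Cd14, the lipopolysaccharide co-receptor, was between 11.67 and 12.51 on the controls and at 9.23, 8.49, 8.85 and 12.39. Clec4n, which encodes dectin-2, was between 8.43 and 9.97 on the controls and at 2.01, 3.59, 5.37 and 9.24, the most negative difference of all tested genes at -4.23. In every one of these genes sensitive array 4 was inside the control range. Ptprc, which encodes the leukocyte marker CD45, had another pattern, between 9.85 and 10.38 on the controls and at 5.76, 6.17, 10.65 and 10.42. It was low on sensitive arrays 1 and 2 only, while sensitive array 3 was above the controls and sensitive array 4 only just above them.

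Arg1, the arginase of alternatively activated and tumor-associated macrophages, showed the same division at high level. It was at 11.37, 12.11, 11.998, 12.11 and 11.22 on the controls and 7.13, 6.89, 5.67 and 11.26 on the sensitive arrays. The difference was -4.02 (SE 0.82, limma adjusted p = 0.18) with all arrays and -5.20 (adjusted p = 2.45e-05) without sensitive array 4. The 10 lower genes with the smallest p in that fit also held F10, Lyz2 and Fpr2, described above, and Lhfpl2 (-3.67), Clec4d (-3.99), Clec4e (-4.17), Fmnl2 (-3.72), Dmxl2 (-4.41) and Cd14 (-3.15). Clec4d and Clec4e are C-type lectin receptors for microbial glycolipids. On sensitive array 4 the last 6 genes were all above the control mean.

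**Figure D4:**
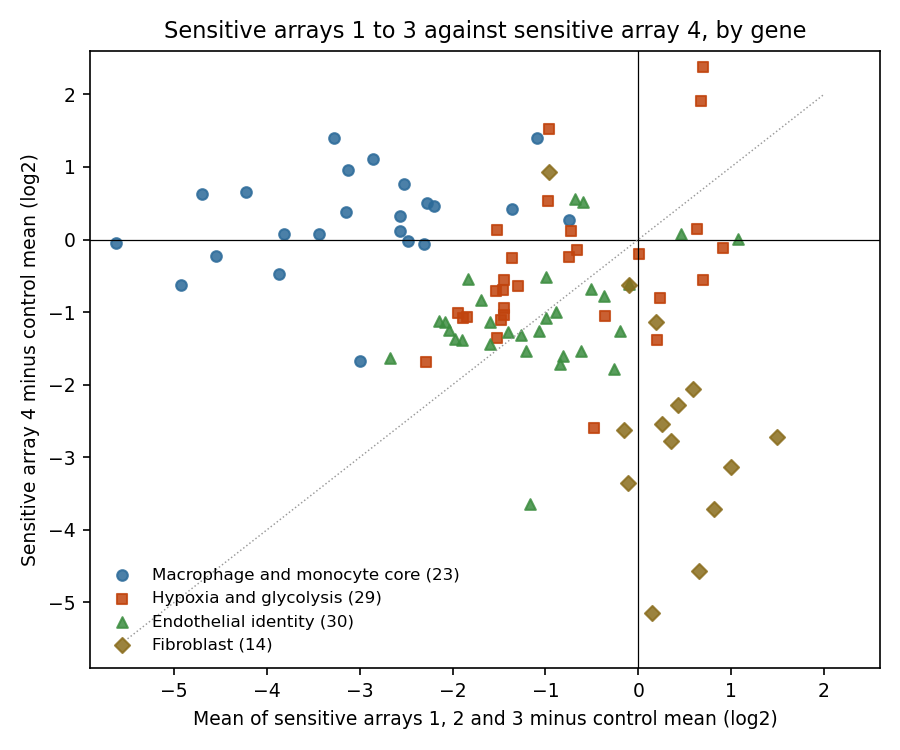
Each point is a gene, with the mean of sensitive arrays 1, 2 and 3 minus the control mean on the x axis and sensitive array 4 minus the control mean on the y axis, both in log2 units. The dotted line marks equal differences. Most macrophage genes (blue) lie far left near 0 on the y axis, most hypoxia genes (orange) are negative on both axes, and most fibroblast genes (brown) are low on the y axis and near or above 0 on the x axis.

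Receptors and lysosomal genes followed the macrophage list. Some genes are on more than 1 list, so the lists are not independent of one another. Of all 15370 genes, 6396 were negative, and 6.58% were lower and 5.31% higher at an unadjusted p under 0.05. Without sensitive array 4, 3.53% were called lower. All 12 Fc receptor and ITAM adaptor genes were negative, 7 were lower at an unadjusted p under 0.05, and the same number was called lower in limma without sensitive array 4 (58.3%). Fcgr4, an activating Fc receptor, was between 6.38 and 7.86 on the controls and at 2.96, 2.87, 3.08 and 6.67 on the sensitive arrays. Fcgr3 (-2.97) and the shared signalling chain Fcer1g (-2.42) had sensitive array 4 inside the control range as well. Of 15 scavenger receptor genes, 13 were negative and 11 were lower at an unadjusted p under 0.05 (73.3%). Stab1, which encodes stabilin-1, was between 6.28 and 8.21 on the controls and at 2.27, 2.01, 2.31 and 7.90. Scarb1, the HDL receptor gene, was between 6.75 and 7.63 and at 4.68, 4.28, 5.15 and 7.18. Of 25 lysosome genes, 24 were negative, 13 were lower and 1 higher at an unadjusted p under 0.05, and 13 were called lower without sensitive array 4 (52.0%). They included the protease genes Ctsz (-3.23 in that fit) and Ctsd (-2.87) and the acid lipase gene Lipa (-2.39). On sensitive array 4 the lysosome list lay 0.53 above the control mean.

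For some lists the median level was lower on all 4 sensitive arrays than on any control. The large peritoneal macrophage list had medians of 5.11 to 6.80 on the controls and of 3.999, 4.53, 3.34 and 4.70 on the sensitive arrays. The complement list had medians of 5.46 to 6.94 on the controls and of 4.60 to 5.21 on the sensitive arrays. For matrix metalloproteinases and their inhibitors they were 4.14 to 5.83 and 3.58 to 4.05. Gene by gene, sensitive array 4 differed less, with a median difference from the control mean of -0.77 for large peritoneal macrophage, -0.15 for complement and -0.23 for metalloproteinase genes, and 7 of 19, 5 of 18 and 6 of 17 genes below every control there (18.6% of all genes). The metalloproteinase list moved from -0.36 to -0.04 without sensitive array 3. The TREM receptor list had the same order, with medians of 5.45 to 7.12 on the controls and of 4.32 to 5.21 on the sensitive arrays. Gene by gene, its median difference from the control mean was 0.003 on sensitive array 4. Within these lists the members divided. C1qc, a chain of the complement starter C1q, was between 7.53 and 10.35 on the controls and at 4.59, 3.67, 4.16 and 9.88. Cfp, the gene of properdin, was between 7.21 and 9.06 and at 3.61, 3.76, 4.96 and 7.29. The metalloproteinase genes Mmp8 (-0.57) and Mmp3 (-1.36) did not overlap, and Mmp8 was within about 1 unit of the floor on every array.

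Cd5l and Cd36 were to be named whatever their values. Cd5l, which encodes a protein secreted by tissue macrophages, was at 7.97, 3.90, 3.34, 8.71 and 6.61 on the control arrays and 4.68, 2.49, 3.09 and 4.48 on the sensitive arrays. The groups overlapped, since control arrays 2 and 3 were as low as the sensitive arrays, and the difference was -2.42 (SE 0.96, limma adjusted p = 0.358). Cd36, a fatty acid and scavenger receptor gene, was at 8.36, 5.92, 4.93, 8.13 and 7.03 against 3.40, 2.99, 4.58 and 5.03, a difference of -2.87 (SE 0.75, limma adjusted p = 0.233). Without sensitive array 4 it was -3.22 with an adjusted p of 0.0391.

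Cytokine genes had mostly negative differences, and Notch genes had both signs. Of 18 inflammatory cytokine genes, 15 were negative, 4 were lower at an unadjusted p under 0.05 (22.2%, against 6.58% of all genes) and 4 were called lower in limma without sensitive array 4 (22.2%, against 3.53%). Il1a was between 10.07 and 10.98 on the controls and at 5.76, 6.78, 6.11 and 10.41, and Tnf between 8.22 and 9.64 and at 6.56, 6.40, 5.24 and 8.97. Both encode early inflammatory cytokines, and in both sensitive array 4 was inside the control range. Cxcl3, a neutrophil chemokine gene, was the only member of 17 CXC genes whose groups did not overlap (5.88%, against 3.03% of all genes). Its difference was -1.57, and its groups overlapped under both other scalings. In the Notch list 6 genes were positive and 9 negative, with a median of -0.03. Notch2, a Notch receptor gene, was at 8.13, 9.23, 9.40, 8.23 and 8.91 against 6.05, 5.80, 7.83 and 7.67, without overlap under any scaling. Jag1, a gene of a Notch ligand, was between 6.54 and 7.52 and at 2.47, 3.56, 3.08 and 6.85, so that it was inside the control range on sensitive array 4.

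Genes higher on every sensitive array differed less and rested more on the scaling. Ncoa1, a coactivator of nuclear receptors, was at 5.62, 5.81, 5.54, 5.04 and 5.19 on the control arrays and 7.27, 7.45, 6.30 and 6.77 on the sensitive arrays. The difference was 1.503 (SE 0.31, limma adjusted p = 0.18), a 2.83-fold higher level. Wapl, which releases cohesin from chromosomes, was between 6.04 and 6.73 on the controls and at 8.31, 8.47, 7.42 and 7.23 (difference 1.53). Ncoa1 and Wapl were the 2 of the 15 higher genes whose groups did not overlap under any scaling. A second probe set of Ncoa1 gave 0.78, and another of Wapl, as bright, gave -0.23.

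The other higher genes had varied roles. Chd4, the helicase of the NuRD complex, was at 5.15, 5.38, 5.75, 4.75 and 5.18 against 6.53, 6.48, 6.69 and 6.59 (difference 1.33, SE 0.28). Med12, a subunit of Mediator, was between 4.42 and 4.63 on the controls and at 5.96, 5.36, 6.40 and 5.48 (1.27), with the controls close together. Gpbp1, a promoter-binding protein, was between 7.89 and 8.52 and at 9.89, 9.44, 9.72 and 9.14 (1.30). Cul2, the scaffold of the ubiquitin ligase of the von Hippel-Lindau protein, was at 5.37, 5.36, 6.02, 5.65 and 5.64 against 7.13, 6.92, 7.08 and 6.25 (1.24). Pias1, a SUMO ligase (1.44), Usp34, a deubiquitinase (1.22), Trim27, a ubiquitin ligase (1.30), Eftud2, a spliceosome GTPase (1.11), and Nfyc, a subunit of the transcription factor NF-Y (1.30), had the same order. So had Dusp5, a nuclear phosphatase of ERK, at 6.69, 6.18, 6.31, 5.95 and 6.31 against 7.54, 7.42, 7.76 and 7.30 (1.22), Mthfd1, a folate enzyme (1.42), Mbp (1.37), Preb (1.04) and Hyls1 (0.47). Chd4, Med12, Cul2 and Mthfd1 did not overlap as deposited but overlapped with arrays shifted to a common median. Gpbp1, Pias1, Usp34, Trim27, Eftud2, Nfyc, Dusp5, Mbp and Preb overlapped under both. Hyls1 overlapped as deposited and was within 1 unit of the floor on every control and sensitive array. All of these differences stayed positive under each scaling, and other probe sets of Gpbp1, Pias1 and Trim27 gave negative or near-zero values. Over all alternatives, other probe set rules included, further genes came close to no difference. The lowest values were 0.22 for Chd4, 0.32 for Cul2, 0.21 for Eftud2, 0.35 for Mbp and 0.24 for Preb.

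Myc led the genes that were higher on sensitive arrays 1, 2 and 3 but not on sensitive array 4. It encodes a transcription factor of growth and division, and was at 6.02, 6.11, 6.49, 5.63 and 5.87 on the controls and 8.29, 8.41, 8.80 and 5.57 on the sensitive arrays. The difference was 1.74 (SE 0.52, limma adjusted p = 0.266) with all arrays and 2.47 (adjusted p = 0.000242) without sensitive array 4. Nudt21, a subunit of the cleavage factor that sets mRNA ends, was between 6.61 and 6.74 on the controls and at 8.25, 8.11, 7.87 and 6.47. Its other probe sets gave differences of -0.28, -0.89 and -0.39, so its direction depends on the probe set. Hs3st1, a heparan sulfate sulfotransferase gene, differed by 1.97 and Unc45a, a myosin chaperone gene, by 1.61 without sensitive array 4, and another probe set of Unc45a gave -0.13. Nr4a1, an immediate early nuclear receptor gene, was between 7.05 and 9.62 on the controls and at 10.58, 10.34, 10.96 and 8.79 (1.67). Of 18 immediate early genes, Myc and Nr4a1 were the 2 called higher without sensitive array 4 (11.1%, against 1% of all genes). Of 27 cell cycle genes, 21 were positive and 2 higher at an unadjusted p under 0.05 (7.41%, against 5.31% of all genes). The median difference was 0.39, but 0.12 as deposited, 0.01 with a common median and 0.11 without sensitive array 3. The list had medians of 5.33, 5.58, 4.96 and 4.34 on the sensitive arrays against 4.21 to 4.76 on the controls. Ccnb2, a mitotic cyclin gene, was at 5.56, 6.18, 5.52 and 4.34 against 3.41 to 4.72. Without sensitive arrays 1, 2 and 3 the median of the cell cycle list turned to -0.29.

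Mitochondrial and endoplasmic reticulum genes were mixed. Of 33 genes of respiratory complex I, 23 were negative, 8 were lower (24.2%, against 6.58% of all genes) and 2 higher (6.06%, against 5.31%) at an unadjusted p under 0.05. The median was -0.08, but -0.50 as deposited and -0.66 with a common median. Ndufa9 was at 8.41, 8.12, 7.82, 8.14 and 7.94 against 5.91, 6.46, 7.41 and 7.54, and Ndufs4 at 6.65, 6.38, 6.49, 6.28 and 6.11 against 5.28, 4.62, 5.47 and 5.76. Ndufa3 (-0.999) was also lower without overlap, while Ndufs8 (0.68) was higher without overlap and Ndufv2 (0.95) was higher with overlap. None of the complex I genes kept groups without overlap under each of the 3 scalings. Of 23 endoplasmic reticulum chaperone and unfolded protein response genes, Fkbp2, a prolyl isomerase gene, was between 7.15 and 7.89 on the controls and at 6.41, 5.47, 5.32 and 5.81, without overlap under any scaling. Pdia6 (-0.76), a disulfide isomerase gene, was lower and Xbp1 (0.86), the transcription factor of the response, higher without overlap, but only with quantile normalized values. Insig1, a regulator of sterol synthesis, was between 6.26 and 7.17 on the controls and between 3.86 and 5.66 on the sensitive arrays. Itgb1, the beta 1 integrin gene, was between 7.76 and 8.63 and at 7.08, 7.46, 5.27 and 7.73, with sensitive array 4 just below the lowest control, and it overlapped under both other scalings.

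Endothelial and angiogenic genes had negative differences that turned when control arrays 4 and 5 were both left out. Of 30 endothelial identity genes, 28 were negative with a median of -1.09, 4 were lower at an unadjusted p under 0.05 (13.3%, against 6.58% of all genes), 0 did not overlap and 0 were called in limma with or without sensitive array 4. Pecam1 was at 2.39, 2.42, 2.62, 6.56 and 6.56 on the control arrays and 3.16, 2.64, 2.33 and 2.83 on the sensitive arrays (difference -1.37, limma adjusted p = 0.496). Cdh5, the gene of VE-cadherin, was between 2.61 and 3.03 on control arrays 1, 2 and 3, at 7.96 and 8.06 on control arrays 4 and 5, with 2.11 to 3.27 on the sensitive arrays. Without control arrays 4 and 5 the median of the endothelial list was 0.14, that of the tip cell list 0.11 (with all arrays -0.84), that of the VEGF ligand and receptor list 0.41 (-0.37), that of the basement membrane list 0.25 (-0.83) and that of the angiopoietin list 0.08 (-0.89). The hypoxia list kept a median of -0.76 without these arrays. With only 1 of these control arrays left out, the medians were closer to 0 but still negative, for example -0.67 without control array 4 and -0.54 without control array 5 for the endothelial list.

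**Figure D5:**
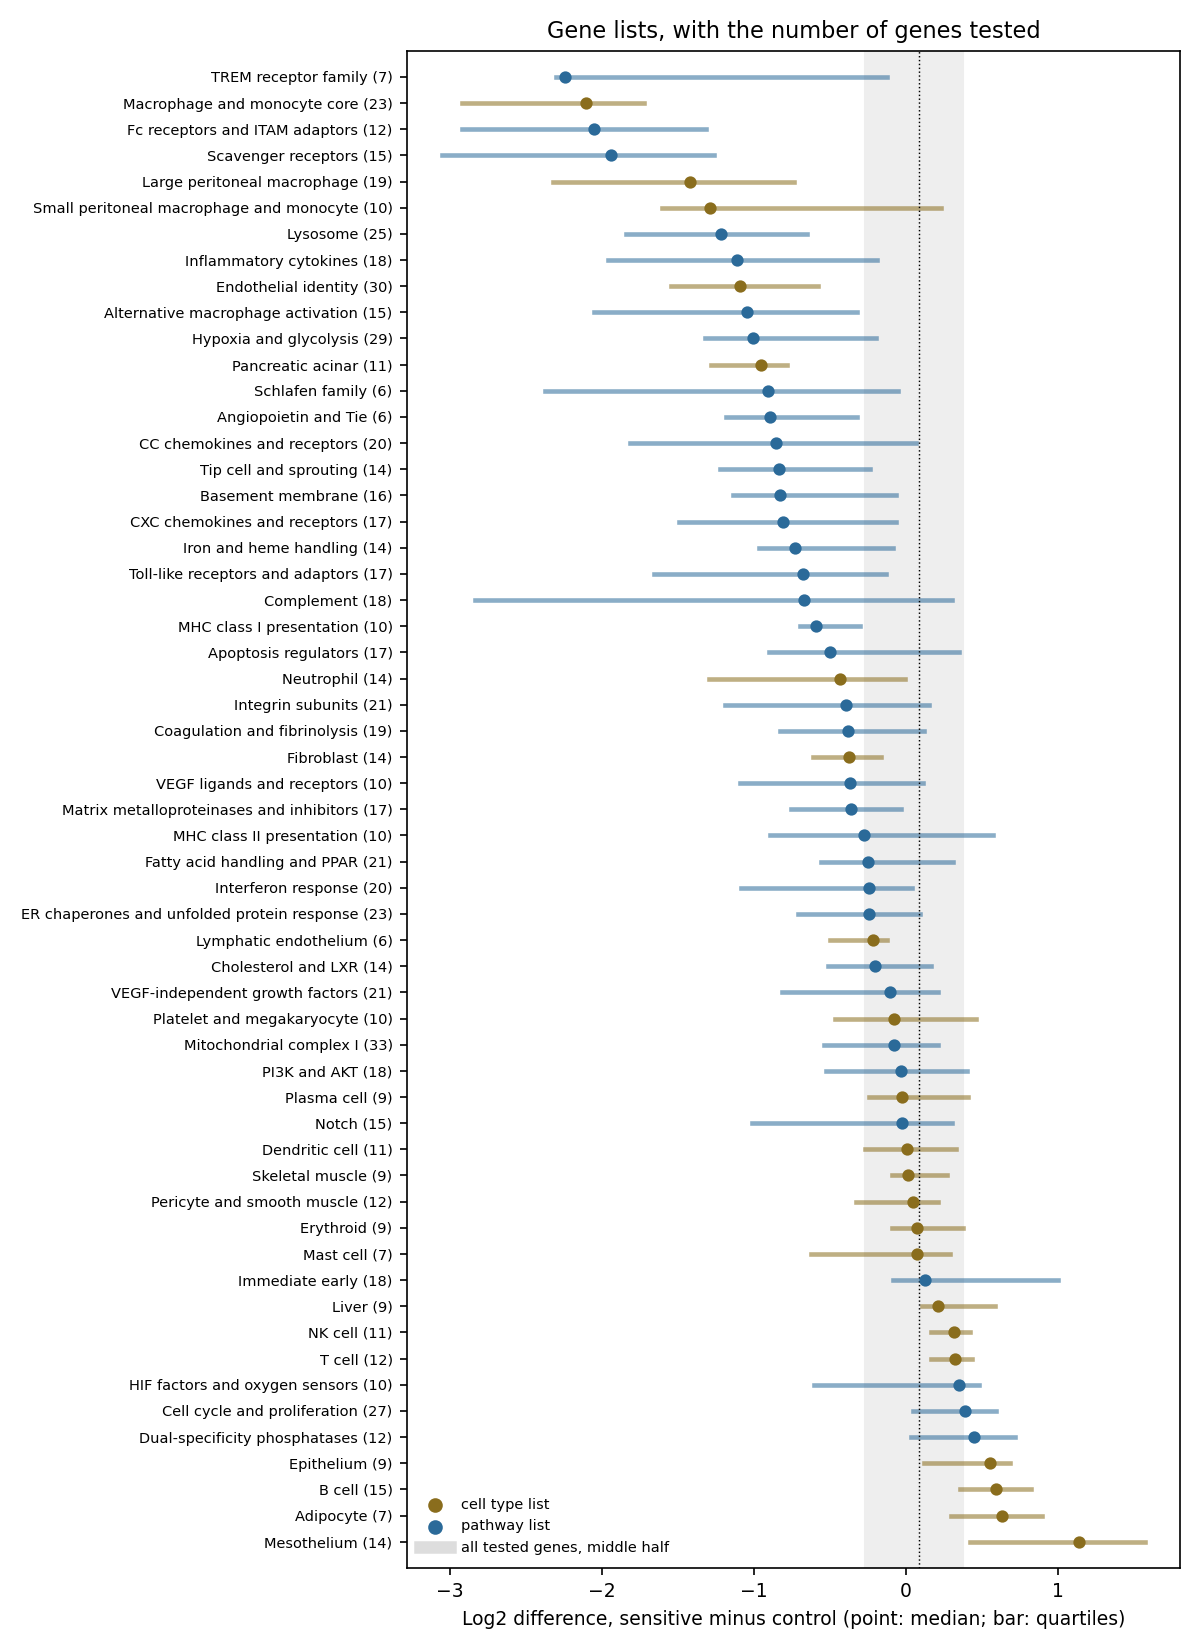
Each row is 1 of the 57 gene lists with its number of tested genes, and the x axis is the log2 difference, sensitive minus control. Points are medians and bars quartiles over the genes of a list, brown for cell types and blue for pathways, and the grey band holds the middle 50% of all tested genes around their median of 0.09. Macrophage, TREM, Fc receptor and scavenger receptor lists have the lowest medians and the mesothelium list the highest, 1.14.

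The cell type lists that were positive followed single arrays. The mesothelium list, with 12 of 14 genes positive, had a median of 1.14, which turned to -1.01 without sensitive arrays 1 and 2. Bnc1, a transcription factor gene of mesothelium, was between 2.01 and 2.39 on the controls and at 6.27, 6.86, 2.01 and 2.17. Epcam, the gene of an epithelial adhesion protein that also marks carcinoma cells, was at 6.52, 6.77, 4.05 and 4.45 against 4.10 to 5.66, and the probe set is of the mouse gene. The B cell list, with 13 of 15 genes positive, turned from 0.59 to -0.24 without sensitive array 3, and Cd79b, a chain of the B cell receptor, was at 8.55 there, with 2.62 to 4.90 elsewhere. The fibroblast collagen gene Col3a1 was between 10.71 and 11.53 on the controls and at 11.65, 11.91, 10.10 and 5.93, and Col1a2 was at 5.18 on sensitive array 4. Below the lowest control by over 1 log2 unit were 547 genes on sensitive arrays 1 and 2 alone, 457 on sensitive array 3 alone and 117 on sensitive array 4 alone. There were 231 such genes on sensitive arrays 1, 2 and 3 together. In the higher direction the numbers were 450, 816, 75 and 6, the last including Myc, Nudt21 and Hs3st1. Genes with groups that did not overlap had a median genomic length of 16428 bases in the lower and 29422 bases in the higher set, against 22389.5 bases for all tested genes with a length, and the part of length in the differences was not tested.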

How the data were processed

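Cells sorted on CD31 from xenografts were measured on Affymetrix mouse arrays, with 45101 values for each of 13 arrays. Per the labels, biotinylated cRNA was hybridised as Affymetrix prescribes and MAS5, no version given, was the processing tool. The study's methods instead describe bead chips normalized in BRB-ArrayTools with a minimum intensity of 100, which the deposited table cannot have kept, since 91.1% of its values are under 100. The deposited values were made by the authors, 1 column per array and not pooled, and were taken as log2 intensities that the authors had processed with MAS5. Neither the log base nor the normalization is given in the sources used here. Trimmed means of the linear values, without the highest and lowest 2%, ran from 19.4 to 33.5.

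Values were quantile normalized over the 13 arrays and raised to a floor at their 30th percentile (2.01). The platform annotation gave 1 gene symbol for 34958 probe sets, several for 932 and none for 9211, including 64 control probe sets. Of these symbols, 34754 were found by Entrez ID in the RefSeq table and 0 changed. Genes above the floor on at least 4 arrays were tested with limma 3.58.1 (R 4.3.3), with an intensity trend, over the 3 groups (10 residual degrees of freedom) and Benjamini-Hochberg adjustment at 0.05 over 15370 genes. The code was tested on simulated data. A fold change is 2 to the power of the log2 difference and is understated where an array is at the floor. The precision of every value is limited by the number of arrays.

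Of 894 genes in 57 lists, 826 had a probe set, and 798 passed the filter. The members, lists and rules were chosen with earlier results of these data known. Genes were named by rule: of those without overlap, the 15 in each direction with the smallest p and the 10 with the largest differences; the 10 in each direction with the smallest adjusted p without sensitive array 4; up to 5 members of each list described with the smallest p; members behind a count of 5 or fewer; and Pecam1, Ptprc, Cd5l, Cd36 and Epcam. Some genes of the rule were left out for length. AA467197, Vegfa, Capg, Ldha, Cdh5, Bnc1, Cd79b, Col3a1, Col1a2 and other genes outside the rule were chosen after their values were seen. Alternatives were other scalings, floors, filters, probe set rules, variance models and array weights, a replicate block and leaving out arrays. A plain t-test was another, without the random variance model named in the study's methods. Promoter sequences come from the RefSeq table of GRCm38.p6.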

Additional observations from a re-analysis of the deposited data

Results flagged for a closer look

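In groups of 4 or 5 arrays, 1 array lay far from the others in 21 of 316 groups examined over named genes and gene lists (6.65%), where chance gives about 1 in 20. The groups share arrays and their genes are not independent. Some genes were named for a small p in the fit without sensitive array 4, which favors genes with that array apart. The share can therefore not be set against chance.

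Sensitive array 4 stood apart for most of the flagged genes, some of them named by that rule. It was higher than the other sensitive arrays for the macrophage genes C1qc at 9.88 (others 3.67 to 4.59), Clec4e at 10.44 (5.77 to 6.37), F10 at 8.53 (5.41 to 5.63), Fcgr4 at 6.67 (2.87 to 3.08), Lyz2 at 11.11 (7.45 to 8.05) and Stab1 at 7.90 (2.01 to 2.31). Itgam was at 6.31 there and at the floor on the other sensitive arrays, and Lhfpl2 was at 7.54 (3.18 to 3.61). The medians of the scavenger receptor list (7.18, others 3.36 to 3.97) and of the Schlafen list (4.67, others 3.62 to 3.72) were also higher there, and Myc was lower at 5.57 (8.29 to 8.80).

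Sensitive array 3 stood apart for lymphoid lists. The B cell list was at 7.66 (others 3.25 to 3.45), the NK cell list at 5.62 (2.53 to 2.57), the T cell list at 5.18 (2.31 to 2.79) and the dendritic cell list at 4.56 (3.39 to 3.57). Cd79b was at 8.55 on it (2.98 to 3.53). Sensitive array 2 was the lowest for Capg, at 4.70 (6.86 to 7.03).

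Among the controls, array 1 was higher for the NK cell list at 4.34 (others 2.32 to 2.53) and the alternative macrophage activation list at 7.77 (5.90 to 6.21). Control array 2 was lower for the integrin list at 4.69 (5.67 to 5.81), and control array 3 lower for Xbp1 at 8.18 (8.58 to 8.74). The causes were not tested.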

How the results depend on the processing

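The direction of every named gene examined held under both other scalings. Ddit4, Hk2, Kdm3a, Car9 and Egln3 were not examined there. No gene was called by limma under another scaling, floor, filter, probe set rule or variance model, or with array weights. A plain t-test on the control and sensitive arrays gave 0 calls after adjustment and 1370 genes at an unadjusted p under 0.05. It lacked the random variance model and the gene filters of the study's methods, so the study's own test was not run. Array weights gave 1185 such genes, against 1828. The split of genes without overlap was 119 higher and 250 lower as deposited and 81 and 244 with a common median. The replicate numbers did not pair the samples, with deviations of same-numbered arrays correlated at -0.404, -0.0851, -0.431 and 0.285, and a fit with the replicate number as a block gave 0 calls and 1255 genes at an unadjusted p under 0.05.

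The arrays left out mattered most. Leaving out 1 array gave from 0 to 696 called genes, from 1210 to 3562 genes at an unadjusted p under 0.05 and from 520 to 1803 genes without overlap, the highest each time without sensitive array 4. Without control array 3, 1 gene was called and 854 did not overlap. Without sensitive array 1, 873 did not overlap, without sensitive array 2, 1210 had an unadjusted p under 0.05, and without sensitive array 3 these numbers were 962 and 3107. Without control arrays 4 and 5, 0 genes were called, 1039 had an unadjusted p under 0.05 and 905 did not overlap. Without sensitive arrays 1 and 2, 19 genes were called and 2912 did not overlap. Without sensitive arrays 1, 2 and 3, where the lone array is assumed to vary like the other groups, 5 were called, 945 had an unadjusted p under 0.05 and 5749 did not overlap. Without control arrays 4 and 5 and sensitive array 4, 273 were called and 2406 did not overlap. Fewer arrays make groups without overlap more frequent by construction.

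Signs of log2 differences turned as follows. With the mean of all probe sets Nudt21 was -0.15, and with probe sets without a suffix preferred Ndufv2 was -0.088, Pfkl 0.13, Stom 0.18, Trim27 -0.25 and Unc45a -0.13. Over the fits leaving out 1 array, Cd79b ran from -0.50 to 1.36, Col1a2 from -1.41 to 0.65, Col3a1 from -1.85 to 0.15 and Vegfa from -0.12 to 1.23 (the turned values without sensitive array 3 for Cd79b and without sensitive array 4 for the others). Without control arrays 4 and 5, Pecam1 was 0.26. Without sensitive arrays 1 and 2, Bnc1 was -0.074, Epcam -0.41 and Ptprc 0.44. On sensitive array 4 alone against the controls, C1qc was 0.79, Cd14 0.38, Clec4d 0.17, Clec4e 0.22, Dmxl2 1.44, Fcgr3 0.42, Fmnl2 1.01, Lhfpl2 0.41, Ptprc 0.32, Stab1 0.65 and Tnf 0.21, and Cd79b was -0.33, Epcam -0.21, Hs3st1 -0.86, Myc -0.45 and Nudt21 -0.23. Without control arrays 4 and 5 and sensitive array 4, Col1a2 was 0.54, Col3a1 0.18, Pecam1 0.23 and Vegfa -0.41. The causes were not tested.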
